A study of Mus musculus with 8 samples.

Results

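The genes described here are 10 markers of Kupffer cells and other macrophages, chosen by symbol from the 56077 genes and loci of the deposited count table. All 10 were found, and all 10 were among the 14261 genes with enough counts to be tested. They form a resident set of 6 genes, Clec4f, Vsig4, Timd4, Marco, Cd5l and Cd163, and a general set of 4 macrophage genes, Adgre1, Csf1r, Cd68 and Lyz2. The RNA came from whole livers of 4 eIF2α heterozygous mice (Het), with the genotype given as Eif2a flox/+, and 4 wild-type mice (WT). All animals were C57BL/6 and 6 months old, were kept on 12 h of light and 12 h of dark with free access to food, and were killed at 6:30 am in the fed state. The growth notes call the animals of both groups lean and wild type, and no recombinase is named in the labels. Nothing in the labels says more than that the libraries are separate replicates, so the p-values measure the spread between these 8 libraries.

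Kupffer cells are the resident macrophages of the liver sinusoids, where they take up particles, bacteria, complement-coated material and worn-out red cells from portal blood. Their survival depends on signalling through the CSF1 receptor, and their identity on cues from neighbouring endothelial cells, stellate cells and hepatocytes. In whole-liver RNA, fewer cells of a type and less RNA per cell cannot be told apart.

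The libraries held 22178028 to 28564400 counts in Het livers and 25626387 to 27799116 in WT livers. The 10 markers together took 0.0140 to 0.0314% of the counts of a Het library and 0.0126 to 0.0310% of a WT library. Eif2s1, which encodes eIF2α, averaged 22.2 ± 2.12 CPM in Het livers and 30.0 ± 2.0 CPM in WT livers (SD, n = 4 each), where CPM is the count scaled to a common library size. Every Het library lay below every WT library for Eif2s1, with a log2 fold change of -0.44 and an adjusted p of 0.315 (edgeR's quasi-likelihood test, Benjamini-Hochberg over all tested genes) or 0.0159 (DESeq2).

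None of the 10 markers passed a test for a difference between the genotypes, and each varied at least 2.09-fold over the 8 livers. With edgeR's quasi-likelihood test, 0 of 10 passed an adjusted p of 0.05, where 0% of all tested genes did. At an unadjusted p under 0.05 the count was also 0 of 10, against 9.34% of all tested genes, of which 4.9% were higher and 4.44% lower in Het. DESeq2 called 0 of 10, against 1.12% of the genes it tested (0.671% higher and 0.447% lower in Het), and limma-voom called 0 of 10, against 0% of its genes. For 0 of 10 markers did the 4 Het libraries stand clear of the 4 WT libraries, against 4.38% of all tested genes (2.06% above WT and 2.32% below). In the authors' deposited table the adjusted p of the 10 genes ran between 0.729 for Lyz2 and 0.984 for Clec4f, and none was marked significant.

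All 10 fitted log2 fold changes of Het over WT were above 0, where 51.1% of all tested genes had that sign. Their median was 0.21, with 0.16 for the resident set and 0.30 for the general set, and the median over all tested genes was 0.0051. The 10 markers varied together between libraries, so their signs are not separate observations. The shared sign also depended on single libraries. Without Het library H11 only 4 of 10 were above 0 and the median was -0.05, whereas without WT library W32 all 10 were above 0 and the median was 0.51. Without WT library W90, 6 of 10 were above 0, and without W33, 8 of 10. Without both W32 and H11, which had the highest marker levels of their groups, 10 of 10 were above 0 with a median of 0.24 and 0 of 10 passed the test.

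**Figure D1:**
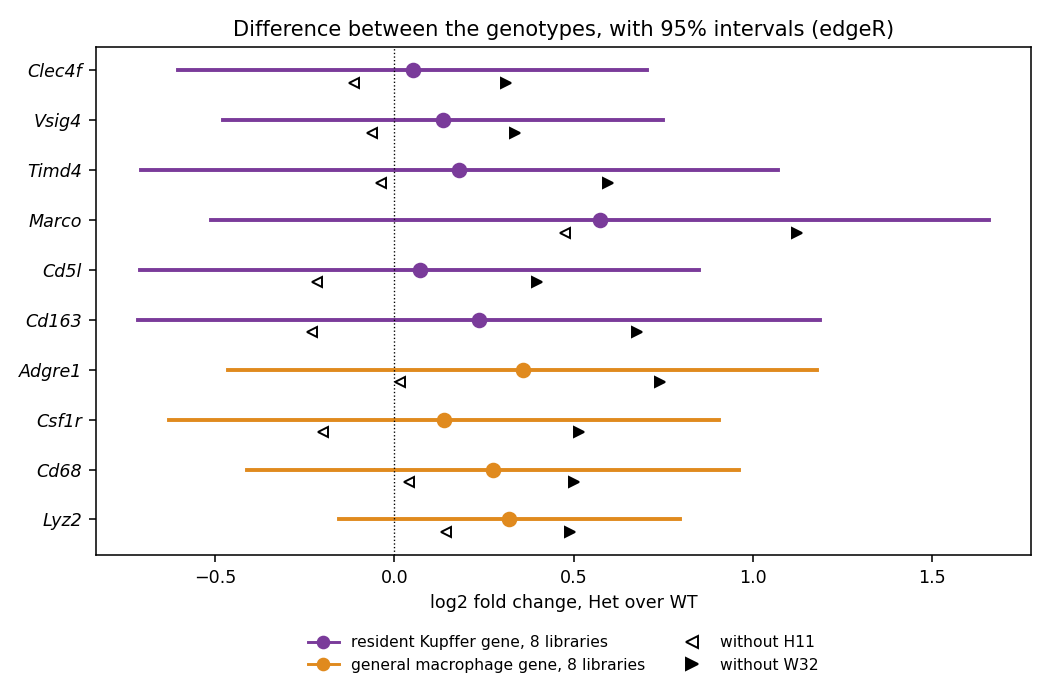
Log2 fold change of Het over WT (horizontal axis) for each of the 10 markers, with the 95% interval of edgeR's fit over 4 Het and 4 WT livers. Every point lies to the right of 0, from 0.05 for Clec4f to 0.57 for Marco, and every interval includes 0.

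The sequence upstream of 4 resident markers is shown, 5′ to 3′ on the strand of the gene, because most resident markers varied together between livers, with Vsig4 and Timd4 as windows with a match to the motif searched and Marco and Cd163 as windows without one. The promoter table of RefSeq for GRCm38.p6 held 8 of the 10 markers. The hexamer GGAAGT, which holds the GGAA core bound by ETS factors such as PU.1, was searched on both strands in the 100 bases before each start and was found in 4 of 8, Clec4f, Lyz2, Timd4 and Vsig4, against 10.03% of 32851 promoters. In 250 bases the same 4 genes held it, against 19.7% of promoters. Of the other hexamers searched on both strands in the 250 bases, GAGGAA, which can share letters with GGAAGT, was in Cd5l, Cd68, Marco and Vsig4, against 23.3% of promoters. TGCTGA, part of the element bound by MAF factors, was in Cd5l, Clec4f, Lyz2 and Timd4, against 16.1%. In the 100 bases GAGGAA was in 2 of 8, Cd5l and Vsig4, against 9.82% of promoters. There TGCTGA was in 2 of 8, Cd5l and Timd4, against 6.95%. Capitals mark the match to GGAAGT. The windows are chrX:96293439-96293538 on the minus strand for Vsig4, chr11:46810699-46810798 on the plus strand for Timd4, chr1:120505025-120505124 on the minus strand for Marco and chr6:124304551-124304650 on the plus strand for Cd163.
Vsig4: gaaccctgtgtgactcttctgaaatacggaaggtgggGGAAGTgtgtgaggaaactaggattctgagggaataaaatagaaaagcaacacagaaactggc
Timd4: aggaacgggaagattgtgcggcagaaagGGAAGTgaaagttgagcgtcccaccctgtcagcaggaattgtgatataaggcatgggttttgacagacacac
Marco: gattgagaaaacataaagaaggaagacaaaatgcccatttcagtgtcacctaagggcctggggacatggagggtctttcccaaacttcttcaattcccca
Cd163: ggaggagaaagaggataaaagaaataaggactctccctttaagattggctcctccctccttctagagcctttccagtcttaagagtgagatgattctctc
The match starts 63 bases before the start of Vsig4 and 72 bases before that of Timd4, and the windows of Marco and Cd163 hold none. These letters describe the windows and show neither binding nor a cause of the shared variation.

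All 10 markers are annotated as protein-coding on GRCm38, and the exons of 9 of them overlap no other gene. Among the resident genes, Clec4f, at chr6:83644542-83656187, encodes a C-type lectin that in mice is made almost only by Kupffer cells. It measured 76.6, 48.9, 34.7 and 71.6 CPM in Het libraries H11, H12, H15 and H75, and 83.6, 46.8, 57.5 and 35.8 CPM in WT libraries W32, W33, W76 and W90. H11 and H75 were high among the Het livers and W32 among the WT livers, and the groups overlapped over nearly their whole range. The means were 58.0 ± 19.6 CPM in Het and 55.9 ± 20.5 CPM in WT (SD, n = 4 each). The log2 fold change was 0.05 with a standard error of 0.29, a 95% interval of -0.60 to 0.70 and an adjusted p of 0.972 (edgeR).

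Vsig4, at chrX:96247203-96293438, encodes a complement receptor of the immunoglobulin superfamily that captures opsonised particles. Its levels were 18.4, 11.3, 7.82 and 15.8 CPM in H11, H12, H15 and H75, and 16.8, 9.79, 12.8 and 9.08 CPM in W32, W33, W76 and W90. The same libraries were high and low as for Clec4f, and the groups overlapped. Vsig4 averaged 13.3 ± 4.72 CPM in Het and 12.1 ± 3.53 CPM in WT (SD, n = 4 each), and its log2 fold change was 0.14 ± 0.28 (SE) with an adjusted p of 0.907 (edgeR).

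Timd4, at chr11:46810800-46844332, encodes a phosphatidylserine receptor for apoptotic cells that marks long-lived resident Kupffer cells. It had the lowest mean per kilobase of the 10 genes, with 4.10, 2.27, 1.78 and 3.40 CPM in H11, H12, H15 and H75, and 4.43, 1.89, 2.62 and 1.21 CPM in W32, W33, W76 and W90. H15 was lowest among Het libraries and W90 among WT libraries, and the groups overlapped. Its lowest library held 32 counts, for which counting alone gives a standard error of 17.7%. The log2 fold change was 0.18 ± 0.40 (SE), with an adjusted p of 0.913 (edgeR).

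Marco, at chr1:120474538-120505024, encodes a class A scavenger receptor that binds bacteria and particles. It measured 5.90, 4.62, 2.0 and 7.30 CPM in H11, H12, H15 and H75, and 6.44, 1.29, 3.01 and 2.53 CPM in W32, W33, W76 and W90. Its order of libraries departed from that of the other markers, since H75 was highest among Het livers and W33 lowest among WT livers. Marco had the largest fitted difference of the 10 with all 8 libraries, with 4.96 ± 2.26 CPM in Het and 3.32 ± 2.2 CPM in WT (SD, n = 4 each). The log2 fold change was 0.57 with a 95% interval of -0.51 to 1.66 and an adjusted p of 0.742 (edgeR), and the groups overlapped. Without H75 the log2 fold change of Marco was 0.33, below that of Adgre1 at 0.37, and without W33 and W32 in turn it was 0.31 and 1.12.

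Cd5l, at chr3:87357881-87371073, encodes a secreted scavenger-receptor protein known as the apoptosis inhibitor of macrophages. It stood at 62.0, 31.5, 22.6 and 45.4 CPM in H11, H12, H15 and H75, and at 61.8, 32.3, 37.5 and 22.2 CPM in W32, W33, W76 and W90. H11 and W32 had almost the same level, as had H15 and W90 at the other end. Cd5l averaged 40.4 ± 17.2 CPM in Het and 38.4 ± 16.8 CPM in WT (SD, n = 4 each), with a log2 fold change of 0.07 ± 0.35 (SE) and an adjusted p of 0.967 (edgeR).

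Cd163, at chr6:124304656-124330527, encodes the receptor that clears haemoglobin bound to haptoglobin. It had 23.9, 10.2, 7.52 and 10.7 CPM in H11, H12, H15 and H75, and 19.8, 9.29, 9.79 and 5.45 CPM in W32, W33, W76 and W90. H11 and W32 each stood well above the other libraries of their group, which overlapped with each other. Cd163 averaged 13.1 ± 7.33 CPM in Het and 11.1 ± 6.12 CPM in WT (SD, n = 4 each), with a log2 fold change of 0.24 ± 0.43 (SE) and an adjusted p of 0.892 (edgeR).

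Among the general genes, Adgre1, at chr17:57358691-57483527, encodes F4/80, the adhesion receptor used to stain mouse macrophages. It had 15.4, 6.51, 6.67 and 9.16 CPM in H11, H12, H15 and H75, and 12.5, 5.82, 7.05 and 4.05 CPM in W32, W33, W76 and W90. H11 was highest, H12 and H15 were close to each other at the low end of the Het group, and the groups overlapped. Adgre1 averaged 9.43 ± 4.15 CPM in Het and 7.35 ± 3.63 CPM in WT (SD, n = 4 each), with a log2 fold change of 0.36 ± 0.37 (SE) and an adjusted p of 0.792 (edgeR). Without H11 it was 0.015, and without W32 it was 0.74.

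Csf1r, at chr18:61100598-61132149, encodes the receptor for CSF1 and IL-34. It measured 46.9, 21.6, 21.3 and 25.9 CPM in H11, H12, H15 and H75, and 44.4, 21.5, 23.9 and 15.3 CPM in W32, W33, W76 and W90. H11 and W32 were about equal and far above the other 6 libraries, and the groups overlapped. Csf1r averaged 28.9 ± 12.2 CPM in Het and 26.3 ± 12.6 CPM in WT (SD, n = 4 each), with a log2 fold change of 0.14 ± 0.34 (SE) and an adjusted p of 0.927 (edgeR). Its counts carried fractions in all 8 libraries, and its exons share 873 bases with Hmgxb3 on the other strand, so reads of the pair may have been divided.

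Cd68, at chr11:69664213-69666153, encodes a lysosomal glycoprotein of macrophages. It had 7.23, 4.28, 2.68 and 5.85 CPM in H11, H12, H15 and H75, and 5.93, 3.64, 3.78 and 3.18 CPM in W32, W33, W76 and W90. H15 was the lowest of all 8 libraries and H11 the highest. Cd68 averaged 5.01 ± 1.97 CPM in Het and 4.13 ± 1.22 CPM in WT (SD, n = 4 each), with a log2 fold change of 0.27 ± 0.31 (SE) and an adjusted p of 0.808 (edgeR).

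Lyz2, at chr10:117277331-117282321, encodes lysozyme M, an enzyme that cuts bacterial cell walls. It had 48.6, 30.8, 25.2 and 39.5 CPM in H11, H12, H15 and H75, and 38.3, 27.8, 26.0 and 23.3 CPM in W32, W33, W76 and W90. H11 was the highest library and W90 the lowest, with H15 between W90 and W76. Lyz2 had the lowest p of the 10, with 36.0 ± 10.2 CPM in Het and 28.8 ± 6.57 CPM in WT (SD, n = 4 each). Its log2 fold change was 0.32 ± 0.21 (SE), with an adjusted p of 0.673 (edgeR). Its neighbour Lyz1, at chr10:117287797-117292868, had at most 1 count in a library. The transcripts of Lyz2 and Lyz1 are identical at 96% of 1262 aligned bases, and the counts of Lyz2 carried fractions in 0 of 8 libraries. The division of reads between the pair was not tested.

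**Figure D2:**
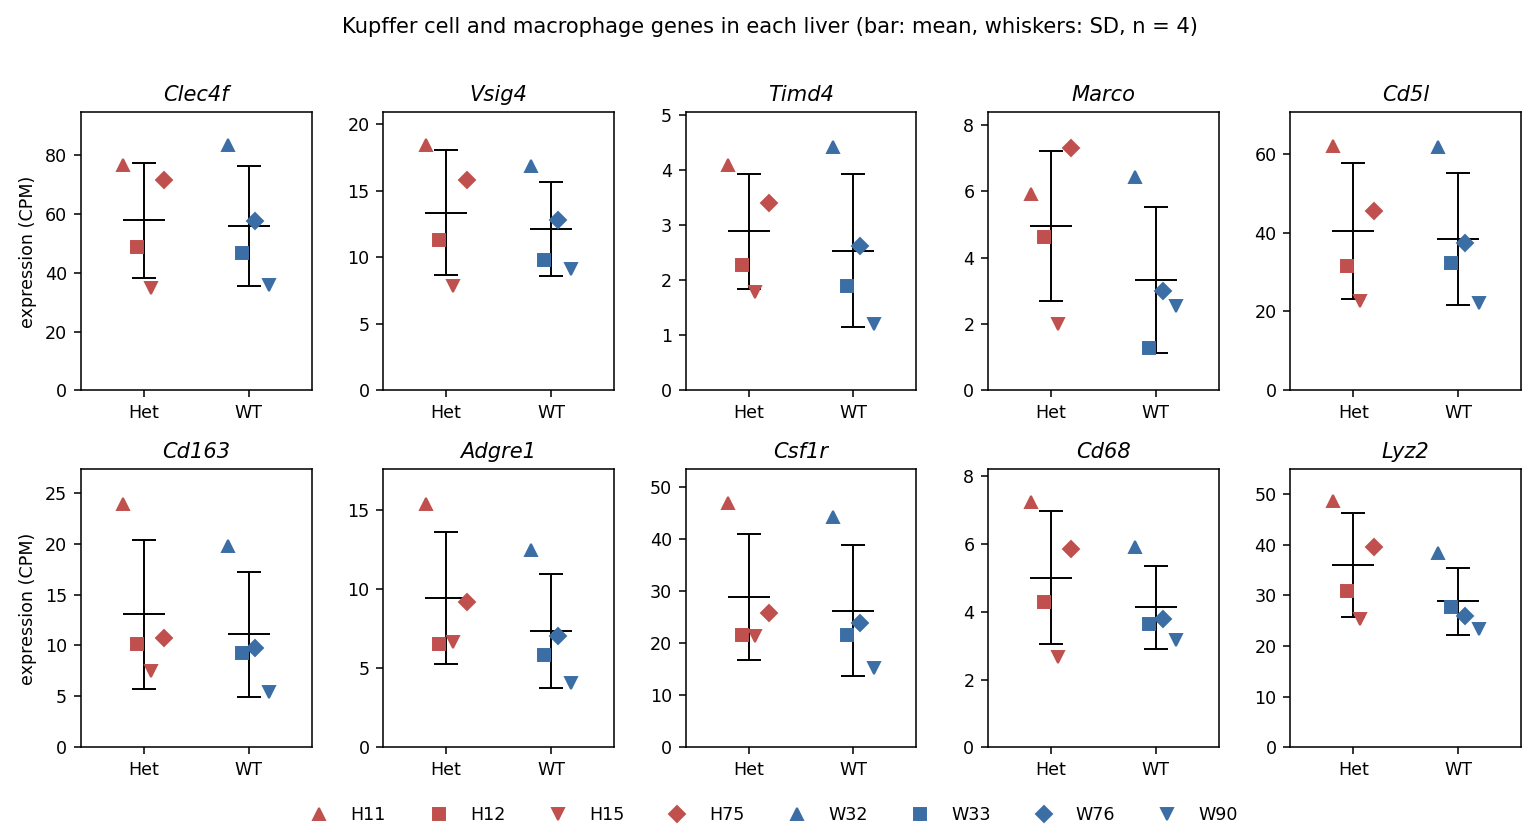
CPM of each of the 10 markers (vertical axes, each starting at 0) in the 4 Het livers, left, and the 4 WT livers, right, with a bar at the group mean and its SD. The groups overlap for every gene, with H11 and W32 at or near the top.

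On a scale of CPM per kilobase of the deposited gene length, which allows levels of different genes to be set side by side, the order was Lyz2, Clec4f and Cd5l, then Vsig4, Csf1r and Cd68, then Cd163, Adgre1, Marco and Timd4 in Het livers. Lyz2 had 27.4 CPM per kb in Het and 21.9 in WT, Clec4f 23.5 in Het and 22.6 in WT, and Cd5l 19.8 in Het and 18.9 in WT. Since the genes were measured in the same livers, neighbours in this order were compared liver by liver. Lyz2 stood above Clec4f in 4 of 4 Het livers and 2 of 4 WT livers, and Clec4f above Cd5l in all 8 livers. Vsig4 had 9.31 CPM per kb in Het and 8.47 in WT, below Cd5l in all 8 livers. It stood above Csf1r, which had 7.48 in Het and 6.79 in WT, in 7 of 8 livers. Cd68 had 4.97 CPM per kb in Het and 4.10 in WT, below Csf1r and above Cd163 in all 8 livers. Cd163, at 2.94 in Het and 2.49 in WT, Adgre1, at 2.91 in Het and 2.27 in WT, and Marco, at 2.57 in Het and 1.72 in WT, changed places between livers, with Cd163 above Adgre1 in 5 of 8 and Adgre1 above Marco in 5 of 8. Timd4 had 1.33 CPM per kb in Het and 1.17 in WT and stood below Marco in 7 of 8 livers. The deposited length of Csf1r, 3870 bases, is shorter than its merged exons, 5774 bases, over which its level was 5.01 CPM per kb in Het and 4.55 in WT. The deposited lengths of Vsig4 (1432 against 1484 bases), Cd68 (1008 against 1257) and Cd163 (4443 against 5461) are also shorter. Over merged exons Cd163 had 2.39 CPM per kb in Het and 2.03 in WT. Those means lay below Adgre1 in both groups and below Marco in Het, so the place of Cd163 depended on the length used.

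The markers varied together between libraries, in both genotypes. The highest library of the 8 exceeded the lowest 2.09-fold for Lyz2 and 2.41-fold for Clec4f, 3.07-fold for Csf1r, 4.38-fold for Cd163 and 5.68-fold for Marco. W32 was the highest WT library for 10 of 10 markers, where it was highest for 22.7% of all tested genes. H11 was the highest Het library for 9 of 10, against 22.5% of all tested genes, and both held for 9 of 10 markers, against 7.69%. At the other end, W90 was lowest in WT for 9 markers and H15 lowest in Het for 9.

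The summed level of the 10 markers was 309, 172, 132 and 235 CPM in H11, H12, H15 and H75, and 294, 160, 184 and 122 CPM in W32, W33, W76 and W90. The SD of log2 levels within groups had a median of 0.570 over the markers, from 0.359 for Lyz2 to 0.763 for Marco, on a scale of log2(CPM + 0.5). It was 0.214 over all tested genes and 0.189 over the 8476 genes within the markers' range of mean CPM. Markers of other cells followed this order of libraries to differing degrees. W32 and H11 were both highest for 18 of 23 pan-myeloid genes and 8 of 12 further Kupffer cell genes. Over all tested genes both held for 7.69%. Both also held for 5 of 8 dendritic cell genes, 5 of 11 scavenger receptor genes and 3 of 4 cell cycle genes. They held for 4 of 14 transcription factors of Kupffer cells, 1 of 12 phagosome and lysosome genes and 0 of 3 inflammatory genes. For genes of lipid-associated macrophages the count was 0 of 8, for hepatocyte genes 0 of 10 and for stellate cell genes 0 of 11. Of 11 sinusoidal endothelial genes, H11 was the highest Het library for 8, W32 the highest WT library for 3, and both held for 3. The summed level of the 24 listed pan-myeloid genes was 146 to 231 CPM in Het and 133 to 267 CPM in WT, and the part of other myeloid cells in the shared spread was not tested. The sum of the 11 endothelial genes, Clec4g and Stab2 among them, was 241 to 357 CPM in Het and 213 to 287 CPM in WT.

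**Figure D3:**
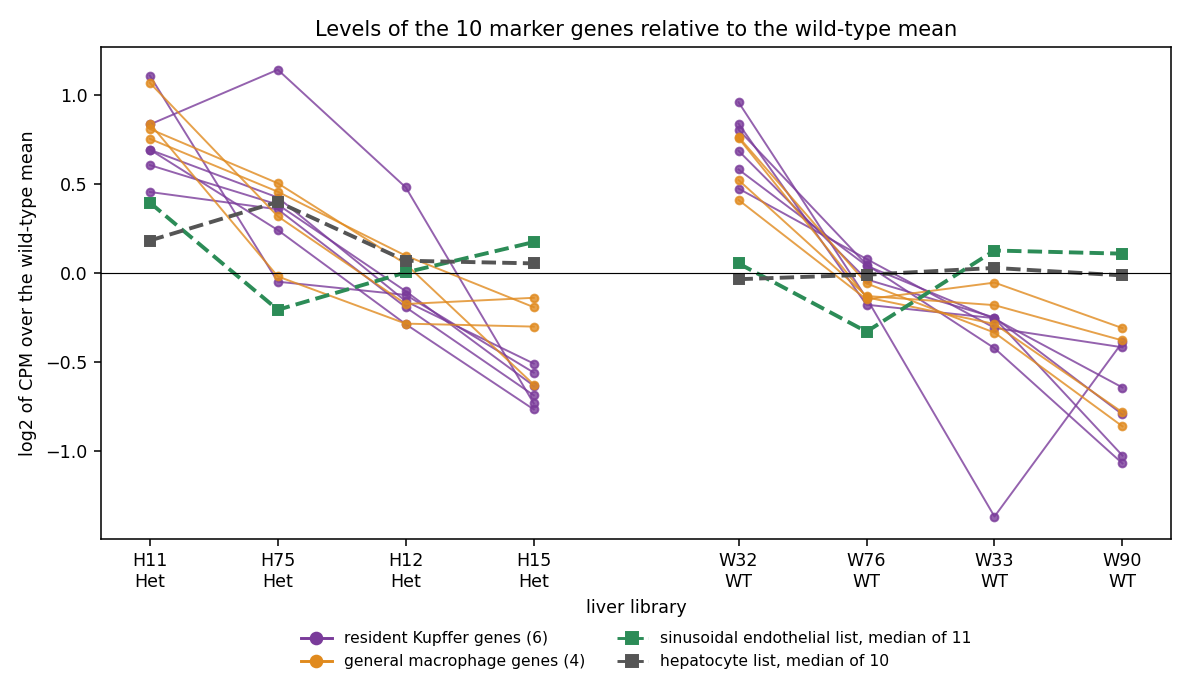
Log2 of CPM over the WT mean (vertical axis) for each marker in the 4 Het livers, left, and 4 WT livers, right, drawn within each group by summed marker level, with the median of log2(CPM + 0.5) over the WT mean for the endothelial and hepatocyte lists dashed. Nearly all marker lines fall between H11 and H15 and between W32 and W90, over a wider range than the dashed lines, which end at W90 close to or above their level in W32.

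The ratio of resident to general markers overlapped between the groups and was lowest in H15. The resident sum was 1.62, 1.72, 1.37 and 1.92 times the general sum in H11, H12, H15 and H75, and 1.91, 1.72, 2.03 and 1.67 times in W32, W33, W76 and W90, so the groups overlapped. By medians of log2 level over the WT mean, resident less general was -0.131, -0.079, -0.413 and -0.016 in H11, H12, H15 and H75. It was 0.105, -0.049, 0.135 and -0.138 in W32, W33, W76 and W90, so H15 lay below every WT library. Set against Clec4f in the same liver, Vsig4 was the steadiest gene, at 22.1 to 24.1% of Clec4f CPM in Het and 20.1 to 25.3% in WT. Cd5l lay at 63.4 to 81.0% in Het and 61.9 to 73.9% in WT. Marco was the least steady, at 5.75 to 10.2% in Het and 2.75 to 7.70% in WT, and Cd163 varied 2.08-fold over the 8 livers.

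**Figure D4:**
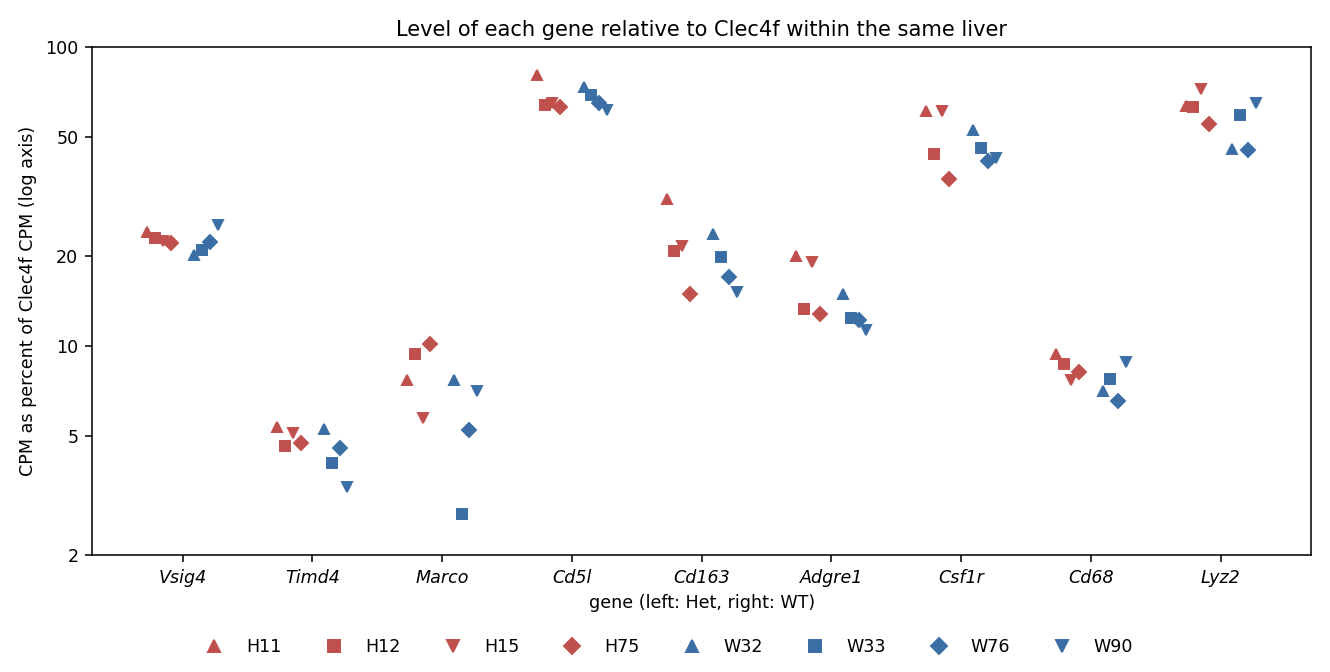
CPM of each of the other 9 markers as a percent of Clec4f CPM in the same liver (vertical axis, log scale), with Het left of WT. Vsig4 spans only 1.26-fold over the 8 livers and Marco 3.71-fold, and the groups overlap for every gene.

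A list of genes around the CSF1 receptor, which also holds Csf2ra, Csf3r and Stat3, had 9 tested members. At an unadjusted p under 0.05 there were 2, Csf1 and Stat3, both higher in Het. Of all tested genes 4.9% were higher at that p, and edgeR called none of the list after adjustment. Stat3 had a log2 fold change of 0.52 and an adjusted p of 0.479 (edgeR), and its groups overlapped. Csf1, a ligand of the receptor, had 9.52, 23.6, 8.84 and 17.3 CPM in H11, H12, H15 and H75, and 7.29, 5.65, 5.90 and 6.13 CPM in W32, W33, W76 and W90. All 4 Het libraries lay above all 4 WT libraries, which holds for 2.06% of all tested genes. The log2 fold change of Csf1 was 1.25, with a p of 0.00184 and an adjusted p of 0.353 (edgeR). The adjusted p was 0.00783 with DESeq2 and 0.430 with limma-voom. It was 0.0317 with edgeR when H15 was left out, a fit that called 252 genes in all. With any other single library left out it was 0.276 to 0.677 (edgeR). In the authors' deposited table Csf1 was marked significant, with an adjusted p of 0.00695. Csf1 was highest in H12, whereas Csf1r was highest in H11. Il34, which encodes the other ligand, averaged 1.43 CPM in Het and 1.49 CPM in WT and was named after its values were seen.

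**Figure D5:**
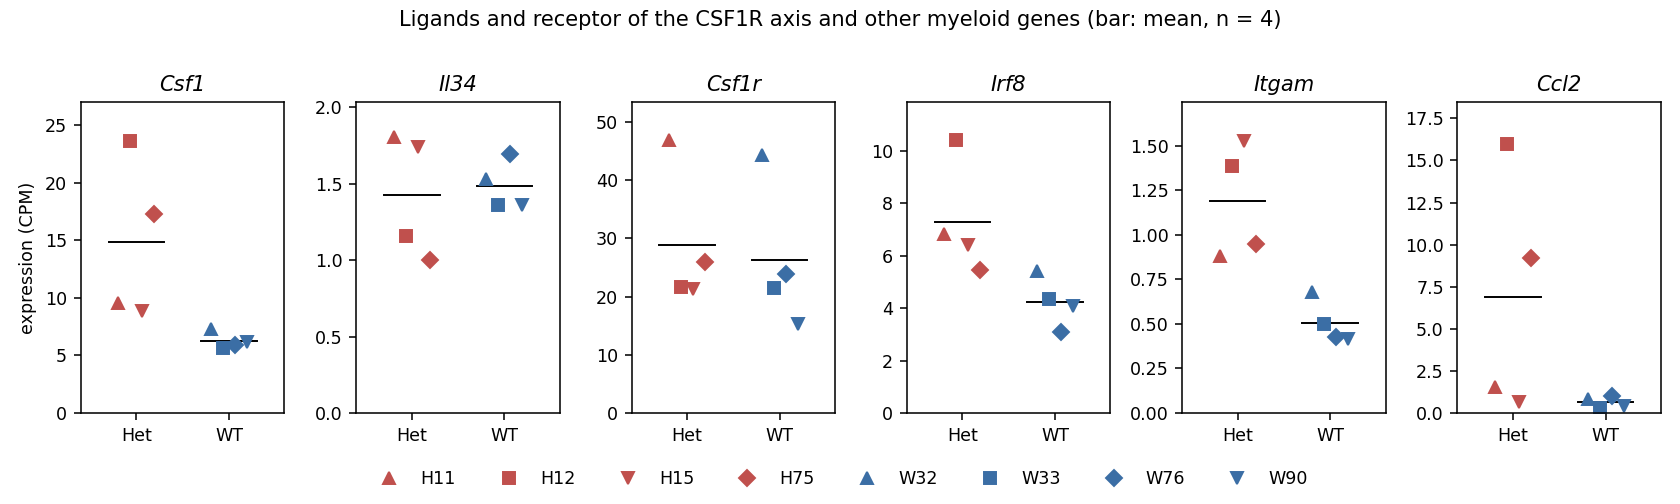
CPM (vertical axes, starting at 0) of Csf1, Il34, Csf1r, Irf8, Itgam and Ccl2 in the 4 Het livers, left, and 4 WT livers, right, with bars at the group means. The groups do not overlap for Csf1, Irf8 and Itgam, and they overlap for Il34, Csf1r and Ccl2. Csf1, Irf8, Itgam and Ccl2 were named for the lowest p of their lists. All 4 Het libraries lie above all 4 WT libraries for 2.06% of all tested genes.

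Among 14 transcription factors of Kupffer cells 1 had an unadjusted p under 0.05, a share near the 9.34% of all tested genes, and edgeR called none. The gene was Irf8, a factor of macrophage and dendritic cell development, with 6.83, 10.4, 6.41 and 5.45 CPM in H11, H12, H15 and H75, and 5.42, 4.36, 3.08 and 4.08 CPM in W32, W33, W76 and W90. All Het libraries were above all WT libraries, as for 2.06% of all tested genes, and narrowly between H75 and W32. The log2 fold change of Irf8 was 0.78, with an adjusted p of 0.390 (edgeR). Nr1h3, which encodes LXRα and is also made by hepatocytes, averaged 68.6 ± 1.91 CPM in Het and 70.3 ± 2.69 CPM in WT (SD, n = 4 each) and was named after its values were seen.

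Of 23 pan-myeloid genes tested, 18 had a log2 fold change above 0, against 51.1% of all tested genes. Since W32 and H11 were both highest for 18 of the 23, the signs are not separate observations. At an unadjusted p under 0.05 the count was 1 of 23, against 9.34% of all tested genes. Itgam, the CD11b integrin chain that is low on Kupffer cells and high on monocyte-derived cells and neutrophils, had 0.88, 1.39, 1.53 and 0.95 CPM in H11, H12, H15 and H75. It had 0.68, 0.50, 0.42 and 0.42 CPM in W32, W33, W76 and W90, below every Het library. Het stood wholly above WT for 2.06% of all tested genes. Itgam was low enough to be left out by a filter of at least 1 CPM in at least 4 libraries. Its log2 fold change was 1.22, with an adjusted p of 0.354 (edgeR). The 3 C1q genes, which encode chains of the first complement component, included none past the test, with C1qa at 25.2 CPM in Het and 22.7 CPM in WT and an adjusted p of 0.888 (edgeR).

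Inflammatory genes were mostly too low to test, with 3 of 12 tested. Ccl2, a chemokine that draws monocytes, had 1.57, 15.99, 0.68 and 9.21 CPM in H11, H12, H15 and H75, and 0.82, 0.29, 1.0 and 0.42 CPM in W32, W33, W76 and W90. H12 and H75 were high, and H15 lay within the WT range. Its adjusted p was 0.355 (edgeR) and 0.0422 (DESeq2), and 0.0461, marked significant, in the authors' deposited table. The defining monocyte markers were low, with Ccr2 at 0.892 CPM in Het and 0.977 CPM in WT. Ly6c2 was at 0.433 CPM in Het and 0.434 CPM in WT. Of 8 tested monocyte genes, 3 had a log2 fold change above 0 and 5 below, where 51.1% of all tested genes were above 0. Among the 8, 1 was higher in Het at an unadjusted p under 0.05, against 4.9% of all tested genes. That gene was Nr4a1, with a log2 fold change of 1.70 and an adjusted p of 0.486 (edgeR), and its groups overlapped. The neutrophil marker Ly6g had no count in 7 of 8 libraries. Only 2 of 10 neutrophil genes were tested, and both were higher in Het at an unadjusted p under 0.05, against 4.9% of all tested genes. S100a9, a calcium-binding protein of neutrophils, had 1.24, 2.47, 0.085 and 1.85 CPM in H11, H12, H15 and H75, and 0.34, 0.25, 0.50 and 0.19 CPM in W32, W33, W76 and W90. H15 was below every WT library and the other Het libraries above them, with a log2 fold change of 2.13 and an adjusted p of 0.442 (edgeR). Summed over the lists, the 10 monocyte genes gave 10.3 to 16.7 CPM in Het and 8.54 to 11.9 CPM in WT, and the 10 neutrophil genes gave 0.722 to 4.55 CPM in Het and 0.492 to 1.26 CPM in WT. The part of these cells in the levels of the general markers was not tested.

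Other lists of macrophage and myeloid genes gave 0 genes called by edgeR as well. Of 11 scavenger receptor genes, 2 were higher and 1 lower in Het at an unadjusted p under 0.05, against 4.9% higher and 4.44% lower over all tested genes. Cd36, a fatty acid and lipoprotein receptor, had 35.5, 22.7, 62.2 and 30.2 CPM in H11, H12, H15 and H75, and 143, 55.0, 94.3 and 53.1 CPM in W32, W33, W76 and W90. H15 lay within the WT range and the other Het libraries below it, with a log2 fold change of -1.20 and an adjusted p of 0.408 (edgeR). Tlr2, a receptor for bacterial lipoproteins, had a log2 fold change of 2.09, with an adjusted p of 0.414 (edgeR) and 0.0445 (DESeq2), and was highest in H12 and H75. The authors' deposited table gave Tlr2 an adjusted p of 0.198, not marked significant, and without H12 the log2 fold change was 1.37. Of 12 phagosome and lysosome genes and 8 genes of lipid-associated macrophages, 0 had an unadjusted p under 0.05. Of 4 tested genes of capsular and peritoneal macrophages 2 were higher in Het at that p, against the same 4.9%, among them Icam2, with a log2 fold change of 0.57 and an adjusted p of 0.406 (edgeR). Of 8 tested dendritic cell genes, 6 had a log2 fold change below 0 and 2 above, where 51.1% of all tested genes were above 0. For 0 of the 8 was the unadjusted p under 0.05.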

How the data were processed

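Liver RNA of 4 Het and 4 WT mice was depleted of ribosomal RNA and sequenced, per the labels' protocols. The submitters' processing notes name the build mm10 and the tools fastp 0.19.5, Bowtie2 2.2.9, GATK 3.8 and SAMtools 1.9, without their roles. The counting program and its strand setting are not stated among these sources. The authors deposited estimated counts per gene, of which 90.0% are whole. The rest carry fractions, so close gene copies depend on how reads were divided. The authors' deposited comparison table gives a fold (ratio) and its log2, together with a p-value before and after adjustment. Columns of the count table name the group without a replicate number.

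Estimated counts were rounded, filtered with filterByExpr, scaled with TMM factors (0.900 to 1.06) and fitted in edgeR 4.0.16 (R 4.3.3) on group alone. Adjusted p-values are Benjamini-Hochberg values over 14261 genes, and CPM uses the scaled library sizes. Alternatives were DESeq2 1.42.0, limma-voom from limma 3.58.1, other scalings and filters, and leaving out libraries. The fit was tested on simulated data. Pairs of libraries of a group had a chi-square per gene of 22.1 to 180, beyond sampling noise. That value cannot tell separate animals from separate preparations of the same RNA. Each library was treated as its own replicate. Counting errors cover counting only. Unannotated loci, 541 in number, took 0.431 to 0.977% of a library.

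The markers and 24 other gene lists were chosen with earlier results of these data known. All markers are named. Of each other list at most 4 genes of lowest p with a mean of at least 0.5 CPM are named, besides a few defining markers. Coordinates are those of GRCm38, which mm10 denotes.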

Additional observations from a re-analysis of the deposited data

Results flagged for a closer look

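Among the named genes, 80 groups of 4 libraries were examined for a library far from the other 3, and 3 were picked out. Chance picks out about 1 in 20 such groups. C1qc stood at 31.27 CPM in WT library W32, with the other WT libraries at 14.26 to 17.05 CPM. Cd14, a co-receptor for bacterial lipopolysaccharide, stood at 3.985 CPM in W32, with the other WT libraries at 1.551 to 1.608 CPM. Icam2, an adhesion molecule of endothelium and some macrophages, stood at 1.475 CPM in WT library W90, with the other WT libraries at 1.608 to 1.635 CPM. W32 was also the WT library highest for all 10 markers, and none of the markers was itself picked out.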

How the results depend on the processing

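No paired analysis was possible because the columns of the count table carry no replicate number. No marker was called under any of the settings tried. Over the 10 markers and 19 settings, 175 of 190 fold changes kept their direction and 15 changed it. Over all genes, edgeR called 0, against 18 with no filter on low counts, 150 with DESeq2, 1 with the newer quasi-likelihood method, 1 with a robust fit, 1 without unannotated loci and 1 at an adjusted p under 0.1. Leaving out a library gave 0 to 252 calls, with 252 without H15 and 2 without W32. The cause was not tested. With library totals as the only scaling, the median of all genes was -0.079, against 0.0051 in the main fit. Clec4f then had a log2 fold change of -0.048 and Cd5l of -0.023. That of Ly6c2 was 0.000303 with limma-voom and 0.056 without W32 and H11, a setting chosen after seeing the data. With each library left out in turn, log2 fold changes ran between -0.11 and 0.31 for Clec4f, -0.062 and 0.34 for Vsig4, -0.050 and 0.60 for Timd4, -0.21 and 0.40 for Cd5l, -0.23 and 0.68 for Cd163, and -0.20 and 0.52 for Csf1r. Those that kept their sign ran between 0.31 and 1.12 for Marco, 0.015 and 0.74 for Adgre1, 0.042 and 0.50 for Cd68, and 0.14 and 0.49 for Lyz2. Among other genes they ran between -0.50 and 0.25 for Ccr2, -0.19 and 0.075 for Il34, -0.16 and 0.21 for Ly6c2, -0.54 and 0.016 for Mpeg1, -0.46 and 0.050 for Spic, and -0.022 and 0.29 for Stab2. The spread between libraries sets wide intervals, and for Timd4 and Marco low counts add to it.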
